A study of Mus musculus with 12 samples.

Results

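Lymphocyte and natural killer (NK) cell transcripts were followed in whole mouse liver through 9 genes taken from a list of T, B and NK cell markers. They were Cd3e, Cd3g, Cd4 and Cd8a for T cells, Cd79a and Ms4a1 for B cells, and Nkg7, Gzma and Ncr1 for NK and cytotoxic cells. All 9 were found by symbol among the 56205 genes of the count table, of which 24871 had at least 1 count. The livers came from 12 ob/ob mice of the strain B6.Cg-Lep ob/J, 1 library per mouse. The study's methods state that only male ob/ob mice were used, which a FLO library described below goes against. As ob/ob mice, both groups lacked leptin and carried the obesity and fatty liver that follow from it. The 6 FLO mice ate standard chow, and the 6 fibrotic mice ate the same chow and received DL-ethionine, an ethyl analogue of methionine. Fibrotic and FLO are names from the sample titles, and fibrosis itself was not assessed here. The study describes this model by microvesicular steatosis and inflammation, and reports no Col1a1 difference with ethionine. The dose is given as 0.165% in drinking water in the treatment label and as an injection of 0.15% in the growth label. The duration is given as 2 weeks in the design text and as 1 week in the study's methods. The mice were 8 to 10 weeks old when ethionine was started. Because the whole organ was extracted, fewer cells of a type and less RNA per cell cannot be told apart in any value given here.

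T cells recognise antigen through a receptor that signals by way of the CD3 chains, with CD4 or CD8 as a coreceptor. B cells use membrane immunoglobulin, which signals through CD79, and NK cells kill by releasing granules that hold granzymes. The liver is known for resident NK, NK-like T and CD8 T cells that sit in the sinusoids beside Kupffer cells, the resident macrophages. Hepatocytes make up most of the tissue and contribute most of its RNA, so lymphocyte genes are read at low counts.

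Libraries held 17815568 to 24814263 counts. A count of 3 in a library corresponded to 0.128 to 0.177 CPM, the level relative to a common library size after TMM normalization, and that floor covers only counting error. In keeping with the tissue label, 10 hepatocyte genes summed to between 59320 and 101400 CPM per library. FLO replicate 3 stood apart before any comparison. It held 3773 counts of Xist, which is transcribed from the inactive X chromosome, against 0 to 4 in the other 11 libraries, and 4 counts of the Y-linked gene Ddx3y against 556 to 977. This pattern goes against the stated male sex, so calls and signs that turned without this library are given beside the result.

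None of the 9 genes was called changed between fibrotic and FLO livers. A call required a Benjamini-Hochberg adjusted p of 0.01 or less and an absolute log2 fold change over 0.5 in the edgeR quasi-likelihood test. Only 2 of the 9, Cd8a and Nkg7, had counts high enough to pass the low-count filter, among 13416 genes of which 29.9% were called, 15.9% as higher and 14% as lower in fibrotic livers. The other 7 were read from the same fit without that filter, where 16.7% of the 24871 genes were called. Low counts lower the chance of a call, so the closer background is the 4923 genes with a mean level in the range of the 9 members, 0.0598 to 0.892 CPM. Of those, 9% were called and 27.7% had an unadjusted p under 0.05. Among the 9 members 0 were called and 1, Cd3g, had an unadjusted p under 0.05. DESeq2 gave the same counts, 0 called and 1 with an unadjusted p under 0.05. The log2 fold changes were positive for 4 members and negative for 5, with a median of -0.05 against 0.02 over the genes in the same range of levels. In each of the 9 genes the values of the groups overlapped. The share of genes that overlap at such levels was not computed, so this is a description.

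**Figure D1:**
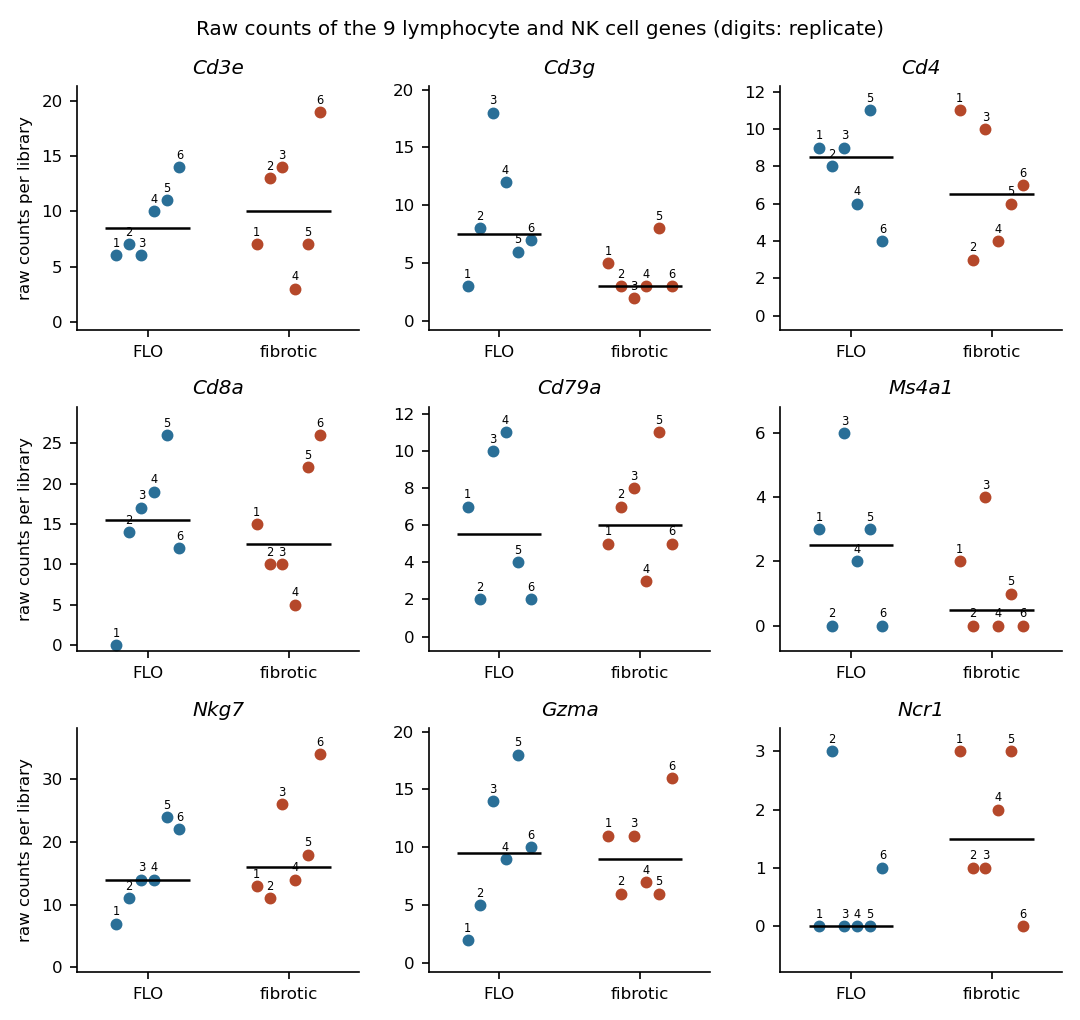
Raw counts per library (y axis) of the 9 genes in 6 FLO (blue) and 6 fibrotic (red) livers; each point is a library with its replicate number, and the black bar is the group median. The groups overlap in every panel, Cd3g shows the clearest downward shift with a median of 7.5 in FLO and 3 in fibrotic livers, and FLO replicate 1 lies at 0 for Cd8a.

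Cd3g, which encodes the gamma chain of the CD3 complex and is annotated on the minus strand of chromosome 9 (44969572 to 44980431, GRCm38), came closest to a difference. Its counts in replicates 1 to 6 were 5, 3, 2, 3, 8 and 3 in fibrotic livers and 3, 8, 18, 12, 6 and 7 in FLO livers. The fibrotic libraries lay low apart from replicate 5, and the FLO libraries lay higher apart from replicate 1, with FLO replicate 3 the highest of all. Most fibrotic libraries, and FLO replicate 1, were at or under the floor of 3 counts. Cd3g averaged 0.200 ± 0.109 CPM with ethionine and 0.448 ± 0.210 CPM without it (SD, n = 6 each). The edgeR log2 fold change was -1.16 with a standard error (SE) of 0.49, an unadjusted p of 0.0272 and an adjusted p of 0.0823. DESeq2 gave an adjusted p of 0.0530. In the two-sided exact permutation test of mean log2 CPM, with a prior count of 2, the difference was -0.84 (p = 0.0303, with shifts from -1.48 to -0.14 not rejected). This was the lowest p of the 9 such tests, which are unadjusted, and the smallest p that all assignments of 6 against 6 allow is 0.00216. All 6 fibrotic libraries had a CPM below the FLO median. Without FLO replicate 3, the library with the Xist counts, the exact permutation difference was -0.69 (p = 0.0563) and the edgeR log2 fold change -0.93 (adjusted p = 0.211). Without fibrotic replicate 3 the exact permutation difference was -0.75 (p = 0.0520), so 2 libraries each decide on which side of 0.05 this test falls.

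Cd3e, the epsilon chain of the same complex, lies beside Cd3g on chromosome 9 (44998740 to 45009627, minus strand). It was read at 7, 13, 14, 3, 7 and 19 counts in fibrotic livers and at 6, 7, 6, 10, 11 and 14 in FLO livers. The fibrotic group held both the lowest and the highest library. The means were 0.535 ± 0.308 and 0.473 ± 0.180 CPM (SD, n = 6 each), and the edgeR log2 fold change was 0.18 ± 0.44 (SE, with an adjusted p of 0.784). The exact permutation test gave a difference of 0.04 (p = 0.905) with shifts from -0.81 to 0.84 not rejected, an interval that still holds changes near the size estimated for Cd3g. The sign of that small difference turned when any of 5 libraries was left out, FLO replicate 3 among them (-0.08). The ratio of the CD3 chains per transcript length was 2.61 for Cd3e over Cd3g in the summed fibrotic counts (63 and 24) and 0.996 in the summed FLO counts (54 and 54). Cd3e exceeded Cd3g per length in 4 of 6 fibrotic and 3 of 6 FLO libraries. The third chain, Cd3d, was read at 2 to 9 counts in fibrotic and 2 to 8 counts in FLO livers, with an edgeR log2 fold change of -0.04 (adjusted p = 0.973, fit without the filter).

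Cd4, the coreceptor of helper and regulatory T cells (chromosome 6, 124864692 to 124888221, minus strand), had 11, 3, 10, 4, 6 and 7 counts in fibrotic and 9, 8, 9, 6, 11 and 4 counts in FLO livers. Both groups spread over the same range, from 0.344 ± 0.165 CPM in fibrotic to 0.414 ± 0.157 CPM in FLO livers (SD, n = 6 each). The edgeR log2 fold change was -0.26 ± 0.45 (SE, with an adjusted p of 0.691), and the exact permutation test left shifts from -0.93 to 0.40 (p = 0.437).

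Cd8a, the alpha chain of the coreceptor of cytotoxic T cells (chromosome 6, 71373427 to 71379173, plus strand), was the most abundant T cell member by CPM. Its counts were 15, 10, 10, 5, 22 and 26 in fibrotic and 0, 14, 17, 19, 26 and 12 in FLO livers. The means were nearly the same, 0.738 ± 0.404 and 0.767 ± 0.497 CPM (SD, n = 6 each), around a spread that was 4.50 and 5.78 times the variance expected from counting alone in the fibrotic and FLO groups. FLO replicate 1 was the exception, with 0 counts of Cd8a, which allows up to 0.164 CPM. The beta chain Cd8b1 was also at 0 in that library and at 2 to 12 counts in the other 11, while Cd3e was read there at 6 counts. The edgeR log2 fold change of Cd8a was -0.05 ± 0.53 (SE, with an adjusted p of 0.944). The difference in mean log2 CPM was positive at 0.17 (exact permutation p = 0.831, shifts from -1.06 to 1.67 not rejected), and it turned negative without FLO replicate 1 (-0.37) or without fibrotic replicate 6 (-0.011). Cd8a exceeded Cd4 per transcript length in 5 of 6 libraries of each group, with a ratio over summed counts of 2.13 in fibrotic and 1.86 in FLO livers.

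The B cell members were read close to the depth limit, with Cd79a at a level near those of Cd3g and Cd4. Over 12 libraries these averaged 0.315, 0.324 and 0.379 CPM. Cd79a, the signalling chain of the B cell receptor (chromosome 7, 24897381 to 24902197, plus strand), had 5, 7, 8, 3, 11 and 5 counts in fibrotic and 7, 2, 10, 11, 4 and 2 counts in FLO livers. Each group thus held libraries at 3 counts or fewer and a library at 11. The means were 0.329 ± 0.149 and 0.30 ± 0.18 CPM (SD, n = 6 each), with an edgeR log2 fold change of 0.11 ± 0.51 (SE, with an adjusted p of 0.895) and an exact permutation p of 0.649 that left shifts from -0.63 to 0.94. Ms4a1, which encodes the surface protein CD20 (chromosome 19, 11249675 to 11266241, minus strand), had 2, 0, 4, 0, 1 and 0 counts in fibrotic and 3, 0, 6, 2, 3 and 0 in FLO livers. It was thus at 0 in 3 fibrotic and 2 FLO libraries and summed to 7 and 14 counts. Its edgeR log2 fold change of -0.91 ± 0.98 (SE, with an adjusted p of 0.487) moved to -0.51 without FLO replicate 3, which held 6 of the 14 FLO counts. It moved to -1.78 without fibrotic replicate 3, which held 4 of the 7 fibrotic counts, and a difference was not detectable at this depth (exact permutation p = 0.340).

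Nkg7, a membrane protein of cytotoxic granules shared by NK and CD8 T cells (chromosome 7, 43437073 to 43438249, plus strand), was the most abundant of the 9 genes. Its counts were 13, 11, 26, 14, 18 and 34 in fibrotic and 7, 11, 14, 14, 24 and 22 in FLO livers. The highest library was fibrotic and the lowest FLO, with broad overlap between them. The means were 0.978 ± 0.476 and 0.805 ± 0.385 CPM (SD, n = 6 each), the edgeR log2 fold change 0.28 ± 0.37 (SE, with an adjusted p of 0.539), and the exact permutation p 0.491 with shifts from -0.54 to 1.03 not rejected. Leaving out the highest library of a group moved the log2 fold change to 0.047 (fibrotic replicate 6 left out) or 0.51 (FLO replicate 5 left out).

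Gzma, the granule protease granzyme A (chromosome 13, 113093825 to 113100981, minus strand), had 11, 6, 11, 7, 6 and 16 counts in fibrotic and 2, 5, 14, 9, 18 and 10 counts in FLO livers. The FLO libraries spread more widely than the fibrotic ones and enclosed them. The means were 0.478 ± 0.205 and 0.501 ± 0.326 CPM (SD, n = 6 each), with an edgeR log2 fold change of -0.07 ± 0.45 (SE, with an adjusted p of 0.935). The exact permutation test of mean log2 CPM gave a difference of opposite sign, 0.06 (p = 0.872, shifts from -0.76 to 0.93 not rejected).

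Ncr1 encodes NKp46, the receptor that defines NK cells and related innate lymphocytes (chromosome 7, 4337724 to 4345164, plus strand). It had 3, 1, 1, 2, 3 and 0 counts in fibrotic and 0, 3, 0, 0, 0 and 1 in FLO livers. No library exceeded 3 counts, and the gene was at 0 in 1 fibrotic and 4 FLO libraries, for 10 and 4 counts in all. The fitted log2 fold change of 1.09 ± 1.01 (SE, with an edgeR adjusted p of 0.416) depends on the prior count at such levels and is no bound. The exact permutation p was 0.178, and it was 0.0217 without FLO replicate 2, which held 3 of the 4 FLO counts.

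**Figure D2:**
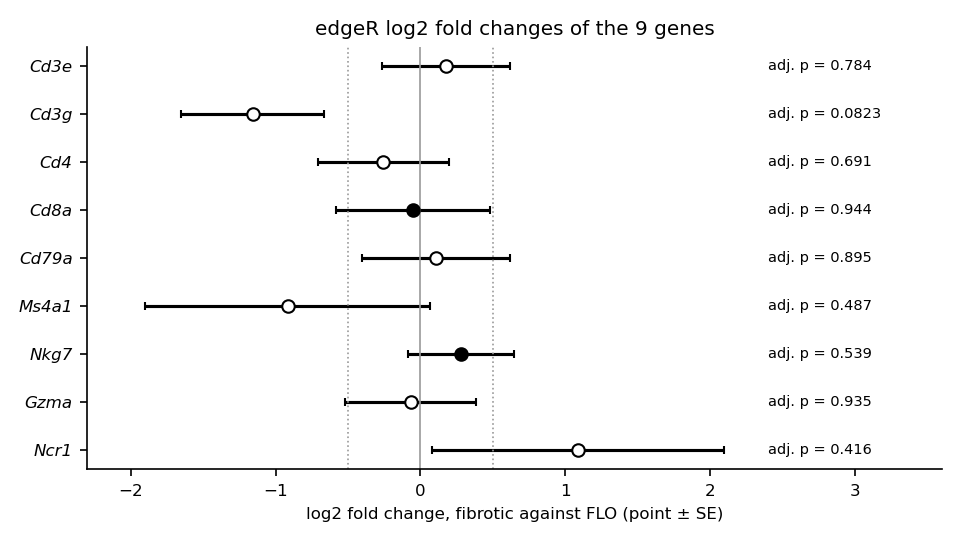
Log2 fold change (x axis, fibrotic against FLO) of each gene as a point with its SE from the edgeR fit; filled points passed the low-count filter, dotted lines mark 0.5 in either direction, and adjusted p-values stand at the right. Cd3g lies farthest below 0 relative to its SE at -1.16 ± 0.49, and the widest bars belong to Ms4a1 and Ncr1, the genes with the fewest counts.

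Compared per kilobase of the longest annotated transcript, the genes fell into an order that was shared by both groups at its top. Over 12 libraries, Nkg7 was highest at 1.01 ± 0.480 CPM per kb (SD) and exceeded Gzma, at 0.492 ± 0.261, in all 12. Gzma exceeded Cd8a, at 0.241 ± 0.138, in 11 of 12. The next genes could not be ordered beyond their spread. Cd8a lay above Cd79a (0.216 ± 0.108) in 5 of 12 libraries, Cd79a above Cd3e (0.198 ± 0.0950) in 7, Cd3e above Cd3g (0.128 ± 0.0810) in 7 and Cd3g above Cd4 (0.122 ± 0.0509) in 6. Cd4 exceeded Ncr1 (0.0400 ± 0.0439) in 10 of 12, and Ncr1 and Ms4a1 (0.0287 ± 0.0308) were not separated, with Ncr1 higher in 6. Nkg7 exceeded Ncr1 by 19.7 times per length in summed fibrotic and 39.0 times in summed FLO counts, the latter resting on 4 Ncr1 counts.

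**Figure D3:**
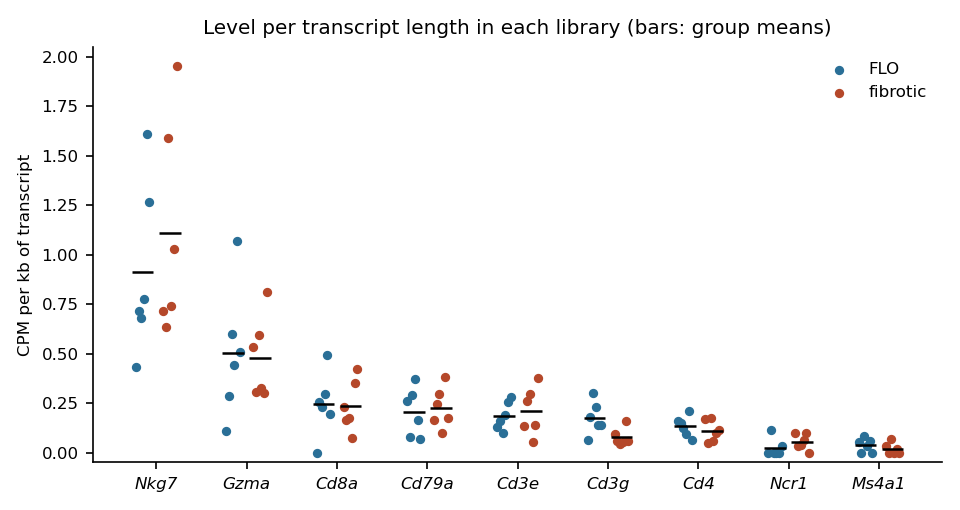
CPM per kilobase of transcript (y axis) of each gene in 6 FLO (blue) and 6 fibrotic (red) livers; each point is a library and the black bar the group mean. The granule genes Nkg7 and Gzma lie above the T cell and B cell genes, and Ncr1 and Ms4a1 lie close to 0.

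Summed by lineage, the genes gave the same picture of overlapping groups. The 4 T cell genes summed to 0.701 to 2.78 CPM in fibrotic livers (median 1.89) and 0.984 to 3.19 CPM in FLO livers (median 2.13). The 2 B cell genes ranged from 0.140 to 0.646 CPM in fibrotic and from 0.102 to 0.684 CPM in FLO livers. The 3 NK cell genes ranged from 0.916 to 2.53 CPM in fibrotic and from 0.492 to 2.48 CPM in FLO livers. That sum was mostly Nkg7 and Gzma, with 208 and 115 counts over 12 libraries against 14 for Ncr1. Nkg7 is shared with CD8 T cells, so the sum is not specific to NK cells. All 9 genes together came to 445 counts in fibrotic and 447 in FLO livers, or 3.75 ± 1.31 and 3.86 ± 1.32 CPM (SD, n = 6 each). Libraries differed in the total within each group, from 37 counts in the lowest FLO library to 110 in the highest fibrotic library. Fibrotic replicate 4 was lowest of its group for the T cell and B cell sums, and FLO replicate 1 was lowest of its group for the T cell and NK cell sums.

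**Figure D4:**
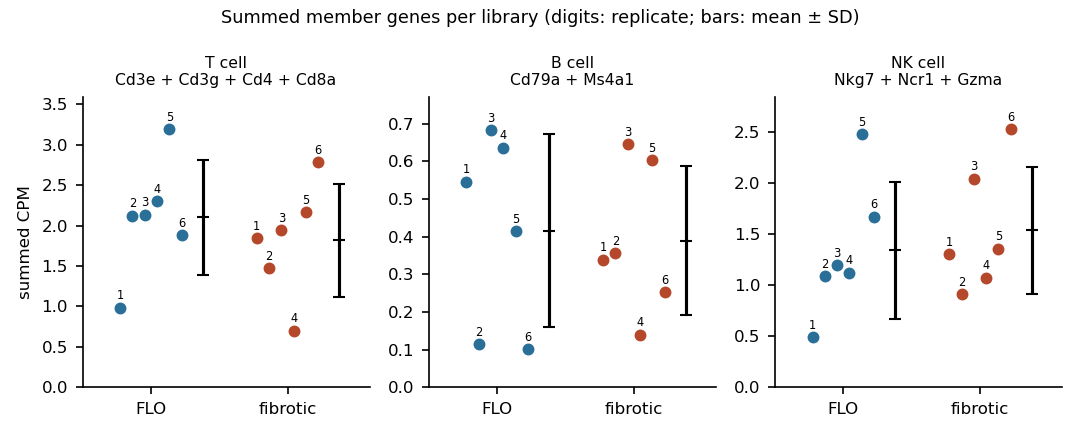
Summed CPM (y axis) of the T cell, B cell and NK cell genes in 6 FLO (blue) and 6 fibrotic (red) livers. Points are libraries with their replicate number, and bars give the mean ± SD. The NK cell sum is mostly Nkg7 and Gzma. The groups overlap in each lineage, with T cell means of 2.10 CPM in FLO and 1.82 CPM in fibrotic livers.

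Further genes of each lineage were read from lists that include the 9 members. The background for each list is the share called over all tested genes, 15.9% higher and 14% lower. Without the filter 16.7% were called in either direction. How often genes or sums outside the lists separate the groups was not computed, so each separation given below is a description. Of 26 T cell genes, 7 passed the low-count filter, 0 were called higher and 3 lower, and the median log2 fold change of those tested was -0.60 against 0.03 over all 13416 genes tested. Without the filter 3 of 26 were called lower and the median had the opposite sign, at 0.08. Zap70, a kinase that binds phosphorylated CD3 and zeta chains, had 17 to 81 counts (median 38.5) in fibrotic and 142 to 191 (median 167.0) in FLO livers. The groups did not overlap, and Zap70 fell by 1.92 on the log2 scale (SE 0.27, edgeR adjusted p = 3.34e-05). Themis, a regulator of T cell receptor signalling in thymocytes, fell by 1.47 (SE 0.32, adjusted p = 0.00187), from a median of 438.5 to 136.0 counts. Tcf7, which encodes the T cell transcription factor TCF1, fell by 0.95 (SE 0.25, adjusted p = 0.00441). The Tcf7 call was lost without FLO replicate 2 (adjusted p = 0.0123) or FLO replicate 3 (adjusted p = 0.0125). Zap70 and Themis were read at 2.43 and 2.97 CPM per kb, far above Cd3e at 0.198 and the receptor alpha constant gene Trac at 0.530. Trac itself had a log2 fold change of 0.08 (adjusted p = 0.935, fit without the filter). The receptor beta constant genes Trbc1 and Trbc2 were read at 0.551 and 1.265 CPM per kb. Trbc2, which passed the filter, had a log2 fold change of -0.60 (SE 0.40, edgeR adjusted p = 0.224) and was not called. Trbc1 had 0.13 (adjusted p = 0.857, fit without the filter). The summed T cell list lay at 15.1 to 27.4 CPM in fibrotic and 29.0 to 53.3 CPM in FLO livers, without overlap. That separation restates the 3 calls, since Zap70, Themis and Tcf7 made up a median of 35.3 CPM in FLO and 11.0 CPM in fibrotic livers. The other 23 genes summed to 4.59 to 9.28 CPM in FLO and 5.04 to 10.8 CPM in fibrotic livers, with overlap.

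The smaller lists gave few calls. Of 12 CD4 and regulatory T cell genes 2 were tested and 0 were called in either direction, and without the filter 0 of 12 were called and 2 had an unadjusted p under 0.05. Of 16 CD8 and cytotoxic effector genes 3 were tested and 1 was called lower, Tox, a transcription factor of T cell development and exhaustion, which fell by 0.68 (SE 0.20, edgeR adjusted p = 0.00900). Tox was read at 2.96 CPM per kb, above Cd8a, and its call was lost without any of 8 of the 12 libraries in turn and without the low-count filter (adjusted p = 0.0134). Of 20 NK cell genes 3 were tested and 0 were called, and without the filter 0 of 20 were called and 1 had an unadjusted p under 0.05. Ifng, the interferon of NK and T cells, was at 0 in all 12 libraries.

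Of 23 B cell genes 7 were tested, 1 was called higher and 0 lower, with a median log2 fold change of 0.67. A positive log2 fold change was seen in 6 of the 7 tested and, without the filter, in 14 of 23, with a median of 0.22. The called gene was Ighm, the constant region of the IgM heavy chain. It had 252 to 661 counts (median 442.0) in fibrotic and 90 to 288 (median 141.0) in FLO livers, with a slight overlap, and a log2 fold change of 1.47 ± 0.30 (SE, with an edgeR adjusted p of 0.000979). Ighm was read at 8.85 CPM per kb, above Cd79a at 0.216. The light chain gene Igkc had a log2 fold change of 0.22 (edgeR adjusted p = 0.483), and Ighd -0.07 (adjusted p = 0.951, fit without the filter). Igha of the plasma cell list had 1.22 (adjusted p = 0.0202, not called). Sequence that immunoglobulin constant genes share with one another was not measured here, so their counts may be less certain than those of single-copy genes. Of 12 plasma cell genes 3 were tested and 1 was called lower, Derl3, a protein of endoplasmic reticulum quality control, which fell by 1.13 (SE 0.32, adjusted p = 0.00822). The Derl3 call was lost without any of 10 of the 12 libraries in turn. Without the filter 1 plasma cell gene was also called higher, Irf4, a transcription factor of plasma cells and activated lymphocytes, with 6 to 27 counts in fibrotic and 1 to 5 counts in FLO livers, without overlap (log2 fold change 1.99, edgeR adjusted p = 0.00280). Of 21 homing and survival signals 12 were tested and 1 was called lower. It was Il18, a cytokine that activates NK and T cells, with 30 to 67 counts in fibrotic and 104 to 148 counts in FLO livers, which fell by 1.56 (SE 0.18, adjusted p = 3.82e-06).

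**Figure D5:**
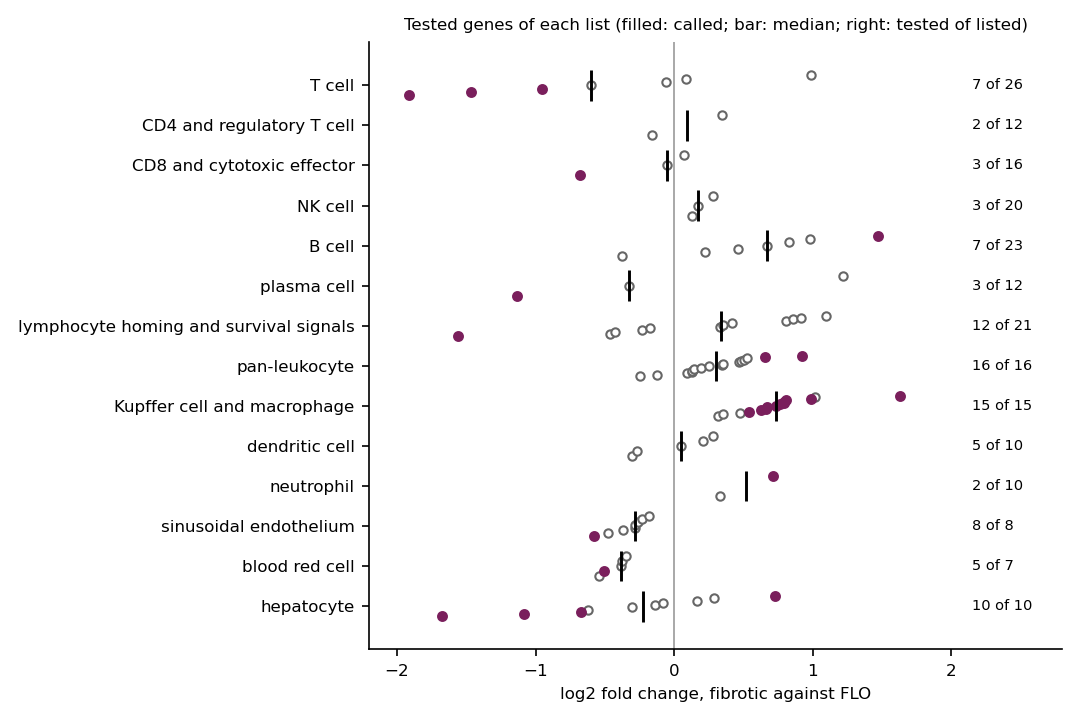
Log2 fold change (x axis, fibrotic against FLO) of those genes in each list whose counts passed the filter; filled points were called, the vertical bar is the list's median, and the numbers at the right give genes tested of genes listed. All 15 points lie to the right of 0 in the Kupffer cell and macrophage list, with 11 of 15 called higher, while the T cell list has 3 of 7 called lower. Over all tested genes 15.9% were called higher and 14% lower.

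Markers of other cells moved over the same libraries, and their part in the lymphocyte values was not tested. Of 16 pan-leukocyte genes 2 were called higher, Dock2 and Laptm5, at log2 fold changes of 0.93 and 0.65, and the summed list overlapped between groups (187 to 281 CPM in fibrotic, 204 to 220 CPM in FLO livers). Of 15 Kupffer cell and macrophage genes 11 were called higher, led by Marco (1.63), Mpeg1 (0.99) and Adgre1 (0.81), and the sum rose without overlap from 392 to 466 CPM in FLO to 504 to 1039 CPM in fibrotic livers. The log2 fold change of Marco was 1.04 without fibrotic replicate 4, still called, while its call was lost without any of 6 other libraries in turn, without the filter (adjusted p = 0.0259) and with limma-voom (adjusted p = 0.0107). The Laptm5 call was lost without any of 3 libraries in turn. Of 10 dendritic cell genes 5 were tested and 0 were called, with sums of 117 to 153 CPM in fibrotic and 117 to 147 CPM in FLO livers, and without the filter 0 were called and 1 had an unadjusted p under 0.05. Of 10 neutrophil genes 2 were tested and 1, Csf3r, was called higher (0.71), a call lost without any of 10 libraries in turn and without the filter (adjusted p = 0.0157). Its list summed to 3.45 to 9.30 CPM in fibrotic and 2.24 to 6.54 CPM in FLO livers. Of 8 sinusoidal endothelial genes 1, Kdr, was called lower (-0.58), and 0 had a positive log2 fold change (median -0.28). Their sums did not overlap, at 165 to 207 CPM in fibrotic and 225 to 256 CPM in FLO livers. Of 7 red cell genes 5 were tested and 1, Hbb-bs, was called lower (-0.51), a call lost without any of 9 libraries in turn, with the replicate block and with limma-voom. The list had sums of 484 to 660 CPM in fibrotic and 586 to 1003 CPM in FLO livers. Of 10 hepatocyte genes 3 were called lower, among them Apoa1 (-1.68) and Pck1 (-1.08), and 1, Cps1, higher (0.73), a call lost without any of 8 libraries in turn and without the filter (adjusted p = 0.0105). Without FLO replicate 3 the calls of Marco (adjusted p = 0.0131), Csf3r (adjusted p = 0.0180) and Hbb-bs (adjusted p = 0.0174) were lost, and 10 of the 15 Kupffer cell and macrophage genes were called higher. The defining markers Cd3e, Cd79a and Clec4f were above 0 in every library, and Ncr1 was at 0 in 5 of 12.

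The genes whose levels tracked each lineage over the 12 libraries, after removal of the group means, were on none of the lymphocyte lists. For the T cell mean they were Hsf4, Bckdk, Mrpl41, Sugt1 and Uckl1, with Pearson r from 0.90 to 0.95. For the B cell mean they were Olfml1, Raet1e, Igfals, Faf1 and Lrch4, with r from 0.85 to 0.89. For the NK cell mean they were Egfl7, Gm10680, AC127342.1, Ciz1 and Zfp511, with r from 0.90 to 0.95. These are the highest values among the 13416 genes compared, the libraries share depth and preparation, and they are given as a description.

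Counts of the 9 genes were little exposed to shared sequence. Of all stretches of 51 bases in the longest transcripts, 0% occurred in another gene for 7 of the 9. Cd79a shared 8.1% with the pseudogene Gm32220, which had 0 counts in all libraries, and Cd8a shared 0.065% with Gm20707, which had 0 to 5. Cd3e overlaps the antisense gene Gm48719, which had 0 counts, and whether the counting used strand is not given in the sources used here.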

How the data were processed

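Poly(A)-selected RNA from 12 whole livers (Trizol) was sequenced. The deposited file is a single table of unnormalized counts (whole reads per Ensembl gene) made by the authors. The submitters' processing notes name bcl2fastq, STAR 2.7.3a and mm10. PISCES is the quantification tool in the study's methods. The mouse annotation and strand setting are not given in the sources used here. Groups and replicate numbers came from sample titles. Identifiers without a symbol (0.0587% of counts) remained in library sizes. Libraries of a group differed by more than sampling noise in every pair (chi-square per degree of freedom of at least 10.3). The labels do not say more of how mice were assigned, so p-values measure the spread between these samples.

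Counts were tested in R 4.3.3 with edgeR 4.0.16 (robust quasi-likelihood, TMM, filterByExpr). The SE is the absolute log2 fold change divided by the square root of F. Members under the filter were read from the fit of all 24871 genes with a count. Library values are CPM, or log2 CPM after adding a prior count of 2, which understates changes of low genes. For each member, all assignments of 6 against 6 libraries gave an exact permutation p (two-sided) and the 95% interval of shifts not rejected. Transcript lengths, positions and 51-base sharing came from GENCODE M21 on GRCm38, which is older than the table's identifiers (only 92.1% of them are in M21). The fits were tested on simulated counts.

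The members and gene lists were chosen with earlier results of these data known. Named were the members and, per direction in each lymphocyte list, up to 4 called genes (largest fold change). Also named were up to 3 called genes in other lists, Xist, Ddx3y and the 5 genes most like each lineage. Cd3d, Cd8b1, Trac, Trbc1, Trbc2, Igkc, Ighd, Igha, Clec4f, Ifng and Irf4 were chosen after values were seen. The split of the T cell sum was also chosen after values were seen. Alternatives were RLE and upper quartile normalization, no filter, at least 10 counts in every library, DESeq2 1.42.0, limma-voom (limma 3.58.1), edgeR without the robust option, a replicate block, thinned libraries, linear CPM, a prior count of 0.5 and leaving out each library. Same-numbered libraries did not deviate together (correlations from -0.162 to 0.104, 1 of 6 pairs over 0.1), so replicate numbers were not taken as pairs.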

Additional observations from a re-analysis of the deposited data

Results flagged for a closer look

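Of 66 sets of 6 libraries examined (the members, named list genes, sums and label checks, each in 1 group), 5 held a library whose gap to its neighbour took an unusually large share of the group's range, where about 3.3 would be so by chance. Cd8a was lowest in FLO replicate 1, with a gap of 0.699 of the range of log2 CPM, from 0 counts in that library. Zap70 was highest in FLO replicate 5, with a gap of 0.709 of the range within FLO livers. Marco was highest in fibrotic replicate 4, with a gap of 0.673 of the range. In FLO replicate 3, Xist was highest with a gap of 1.0 of the range and Ddx3y lowest with a gap of 0.946.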

How the results depend on the processing

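None of the 9 members was called under any alternative that gave a value: 0 of 173 alternative log2 fold changes, with a lowest adjusted p of 0.0398 (Cd3g). No member had at least 10 counts in every library, so that filter gave no member value. Over all genes, 3566 to 4655 were called. Of the 173 values, 18 changed sign, all in Cd3e, Cd79a, Cd8a or Gzma. With the replicate block Cd8a was 0.00037 and Gzma 0.038, and the block, under which 3780 genes were called, changed no member's call; no same-numbered library was the best match of its pair (0 of 6). With limma-voom Cd8a was 0.39 and Gzma 0.079, and in thinned libraries Gzma was 0.081. Leaving out each library gave log2 fold changes from -0.073 to 0.39 for Cd3e, -0.10 to 0.35 for Cd79a, -0.31 to 0.25 for Cd8a and -0.28 to 0.27 for Gzma, and without a change of sign from -1.47 to -0.93 for Cd3g, -0.42 to -0.09 for Cd4, -1.78 to -0.51 for Ms4a1, 0.047 to 0.51 for Nkg7 and 0.83 to 2.44 for Ncr1. The exact test's difference on linear CPM was -0.029 for Cd8a and -0.023 for Gzma. In mean log2 CPM, leaving out each library moved the exact test's difference from -0.14 to 0.29 for Cd3e and -1.03 to -0.69 for Cd3g. It ran from -0.012 to 0.32 for Cd79a, -0.37 to 0.43 for Cd8a, -0.21 to 0.29 for Gzma and 0.35 to 0.67 for Ncr1. The cause of these shifts was not tested. Intervals near 1 log2 unit on either side limit what the members' depth can show.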
